A study of Homo sapiens with 5 samples.

Results

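The CHCHD genes described here are CHCHD2 and 7 relatives that encode twin CX9C proteins of mitochondria, namely CHCHD1, CHCHD3, CHCHD4, CHCHD5, CHCHD6, CHCHD7 and CHCHD10. They were taken by gene name, and all 8 were found among the 33857 genes listed. The set was proposed with earlier results of these samples known, and CHCHD2 was selected on its low normalized counts in the edited clones, so its fall is a description and carries no p-value. The 7 relatives were added by name.

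Poly(A+) RNA was sequenced from H9, a line of human embryonic stem cells, as 2 mock control and 3 CFIm25-m samples. All were grown in mTeSR. The study's mock controls are cells transfected with the empty CRISPR vector, and it also describes plain H9 cells as a separate control. The labels of the 2 control samples read control KO with CRISPR-Cas9 as the technique, while their data columns are named only for H9, so the sources do not settle whether these cells had carried the vector. They are called mock control here. The CFIm25-m samples are puromycin-selected clones edited with different gRNAs against NUDT21, which encodes the 3' end processing factor CFIm25. The labels call these clones KO and the series title KD, and the study describes shortened CFIm25 protein that remained at a reduced amount. Each mutant sample is thus 1 clone, and p-values measure the spread between these samples.

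Twin CX9C proteins carry a pair of motifs in which cysteines are spaced by 9 residues. They are made in the cytosol, pass through the outer membrane and are folded in the intermembrane space by CHCHD4, also called MIA40, which gives them disulfide bonds. Members serve the respiratory chain, the mitochondrial ribosome and the MICOS complex that shapes cristae. CHCHD2 and CHCHD10 are paralogs that bind each other, and mutations in them are linked to Parkinson disease and to amyotrophic lateral sclerosis. CHCHD2 can also act in the nucleus on the promoter of COX4I2, a subunit of cytochrome c oxidase.

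The values are normalized counts, in which each sample's reads per gene were scaled by its own size factor, and 1 read was worth between 0.900 and 1.15 normalized counts. Total reads were 18754108 to 23372391 per sample. NUDT21 itself was present at 6503 and 6398 normalized counts in the mock controls and at 4035, 3281 and 3400 in the clones. Its level in the clones was 55.4% of that in mock control, a log2 fold change of -0.86 (SE 0.11, limma-trend adjusted p = 0.00431), and the groups did not overlap. All 10 stem cell markers examined were expressed, with summed normalized counts of 247243 to 251102 in mock control and 226152 to 229704 in the clones. For 7 of the 10 the groups did not overlap, beside 36.8% of all tested genes. NANOG, LIN28A, SALL4 and DNMT3B were lower, and POU5F1, TDGF1 and PODXL higher, in every clone than in both controls. Among markers of other cell types, 5 of 8 for neuroectoderm, 2 of 10 for mesoderm and endoderm and 4 of 8 for fibroblasts reached the level needed for testing. Summed normalized counts were 13318 to 14034 in mock control and 11036 to 14310 in the clones for neuroectoderm, 67.6 to 69.2 and 65.7 to 114.5 for mesoderm and endoderm, and 16134 to 16521 and 13355 to 16600 for fibroblasts. SOX17, FOXA2, DCN and LUM stayed below 3 normalized counts in every sample, while other markers were high, with COL1A1 at 5749 to 8705, THY1 at 5620 to 7468, COL1A2 at 1107 to 1493 and PDGFRB at 502.5 to 889.5. COL1A1 was lower, and COL1A2 and PDGFRB higher, in every clone than in both controls. CER1, a marker of endoderm, reached 68.3. The neuroectoderm sum came mostly from NES, at 10473.8 to 13157.5 normalized counts. SOX1 was lower, and PAX6, ZIC1 and LHX2 higher, in every clone than in both controls, all at 20.3 or less. The groups overlapped for NES, OTX2, SIX3 and NEUROG2. Of the 21 tested genes of the 4 marker lists, 0 were called by limma-trend or edgeR and 2 by DESeq2. DESeq2 called 628 of all 19232 tested genes. Yet 7 of the 21, or 33.3%, had an unadjusted limma-trend p below 0.05, beside 15.1% of all tested genes. Without CFIm25-m replicate 3, limma-trend called 8 of the 21, namely 5 for stem cells, 1 for neuroectoderm and 2 for fibroblasts, beside 5.56% of all tested genes in that fit. The part of marker differences in the results below was not tested.

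Since the largest difference concerned CHCHD2, its promoter and that of its paralog CHCHD10 are shown. Both are RefSeq windows in GRCh38.p14, from 250 bases before to 50 bases after the start site. CHCHD2 is at chr7:56106427-56106726 and CHCHD10 at chr22:23767923-23768222, both on the minus strand and written 5′ to 3′. Capitals mark matches to the searched motifs on either strand.
CHCHD2: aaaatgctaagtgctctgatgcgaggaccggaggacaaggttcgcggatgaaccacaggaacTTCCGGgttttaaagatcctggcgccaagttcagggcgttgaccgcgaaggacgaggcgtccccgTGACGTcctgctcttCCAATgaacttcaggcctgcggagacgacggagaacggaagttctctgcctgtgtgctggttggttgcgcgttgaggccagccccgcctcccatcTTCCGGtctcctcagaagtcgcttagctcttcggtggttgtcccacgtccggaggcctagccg
CHCHD10: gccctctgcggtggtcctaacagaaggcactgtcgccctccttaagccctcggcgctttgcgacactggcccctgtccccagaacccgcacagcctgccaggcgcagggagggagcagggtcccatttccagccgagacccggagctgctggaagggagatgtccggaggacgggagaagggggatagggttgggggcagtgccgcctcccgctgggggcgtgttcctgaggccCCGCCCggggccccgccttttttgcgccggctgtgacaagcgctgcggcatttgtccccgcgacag

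The motifs searched were the cAMP response element core TGACGT, the ETS core CCGGAA, the NRF1 core GCGCATGC, the RBPJ core TGGGAA, the CCAAT box, the GC box GGGCGG and the TATA box TATAAA. Matches to different motifs did not overlap in either printed window. The CHCHD2 window held TGACGT at position -123 from the start site, CCAAT at position -108, and the ETS core as its reverse complement at positions -188 and -13. The CHCHD10 window held only a GC box, as its reverse complement, at position -16. A window was found for 7 of the 8 members, and TGACGT was in 1 of these 7 against 7.98% of all 35116 windows. The ETS core was in 3 of the 7 windows, those of CHCHD2, CHCHD4 and CHCHD5, against 17.2% of all windows. GCGCATGC was in 1 (3.05% of all), TGGGAA in 3 (24.0%), CCAAT in 3 (34.6%), GGGCGG in 2 (45.0%) and TATAAA in 0 (11.5%).

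The CHCHD2 window was 59.7% G and C, near the median of 58.7% over all windows. Its ratio of observed to expected CpG was 0.98 against a median of 0.58, and 10.7% of windows had a higher ratio. The CHCHD10 window was richer in G and C, at 69.0%, with a lower CpG ratio of 0.64. The other 5 member windows had CpG ratios of 0.80 to 0.93. The RefSeq start site of CHCHD2 lies 100 bases inside the first listed base of the gene, and that of CHCHD10 lies 471 bases inside. These matches describe letters only, and neither binding nor methylation was measured in the values used here.

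CHCHD2 (ENSG00000106153, chr7:56101569-56106576 in GRCh38, minus strand) was near zero in all 3 clones. Its normalized count was 280.1 in mock control replicate 1 and 279.9 in replicate 2. In the CFIm25-m clones it was 1.00, 2.70 and 3.85. Both mock controls thus had nearly the same level, and every clone lay far below them, with no overlap between the groups. In recovered reads, the mock controls held 243 and 290 reads of CHCHD2 and the clones 1, 3 and 4. Each library holds RNA of many cells, so fewer cells with CHCHD2 RNA and less of it per cell cannot be told apart.

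The log2 fold change of CHCHD2 on the log2(value + 1) scale was -6.41 (SE 0.43). The constant of 1 pulls this value towards zero for a gene at so few reads, and the ratio of reads scaled by size factor is a fuller measure. That ratio was 0.358% of mock control in replicate 1, with an exact 95% interval of 0.0090% to 2.00%. It was 0.965% (0.198% to 2.83%) in replicate 2 and 1.37% (0.373% to 3.54%) in replicate 3. The 3 intervals overlap and share the same mock reads, and a difference between clones in what remained of CHCHD2 was not tested. Over the 3 clones together, 8 reads stood against 533 in the mock controls, or 0.908% of the mock level (0.390% to 1.80%). These intervals cover counting error only.

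Processed pseudogenes are copies of a gene's mRNA in the genome that can share its reads. The 8 listed pseudogenes of the CHCHD genes all stayed below the level needed for testing. CHCHD2P6, CHCHD2P7 and CHCHD2P9 together had 4.61 and 5.79 normalized counts in mock control and 10.02, 3.60 and 4.81 in the clones. CHCHD2P7 held the most in any sample, 7.02 in CFIm25-m replicate 1. In every clone this sum was above what remained of CHCHD2, which was 1.00, 2.70 and 3.85. Reads of near-identical copies could be split between them. The other listed pseudogenes, among them CHCHD3P3 and CHCHD4P5, had at most 9.62 normalized counts in a sample.

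CHCHD10, the paralog and partner of CHCHD2 (chr22:23765834-23768443, minus strand), remained expressed in every clone. Its normalized counts were 389.6 and 433.3 in mock control and 294.7, 454.6 and 423.2 in the clones. Replicate 1 was the lowest sample and replicate 2 the highest, and the groups overlapped. The log2 fold change was -0.10 (SE 0.18, limma-trend adjusted p = 0.839), with a 95% interval of -0.50 to 0.31, that is 0.707 to 1.24 times the mock level. Without CFIm25-m replicate 1 the sign turned, to 0.094. Per length, CHCHD2 had 86.4 and 77.6 normalized counts for every 100 of CHCHD10 in the mock controls. In the clones it had 0.409, 0.714 and 1.09.

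The order of the genes by level was taken from normalized counts per kb of listed gene length. In mock control it ran CHCHD3 (698.5), CHCHD1 (545.5), CHCHD6 (346.1), CHCHD10 (302.5), CHCHD2 (247.3), CHCHD4 (214.4), CHCHD7 (141.9) and CHCHD5 (99.5). No 2 neighbours in this order overlapped between the 2 mock samples. Per kb, CHCHD2 stood in the middle of its family there, above 79.1% of tested genes. By normalized count alone it was already the lowest of these genes in mock control, at a mean of 280.0 beside 374.1 for CHCHD5. Its middle rank thus rests on the listed lengths, such as 1132 bases for CHCHD2 and 3759 for CHCHD5. In the clones CHCHD2 was last, at 2.22 ± 1.26 normalized counts per kb (SD, n = 3), above 1.92% of tested genes. Testing needed at least 10 normalized counts in at least 2 samples, which CHCHD2 reached only in the mock controls. Its low place among tested genes in the clones was thus largely set by that filter. The other 7 genes kept their order in the clones. There the ranges of CHCHD3 and CHCHD1 overlapped, as did those of CHCHD6 and CHCHD10 and those of CHCHD10 and CHCHD4.

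**Figure D1:**
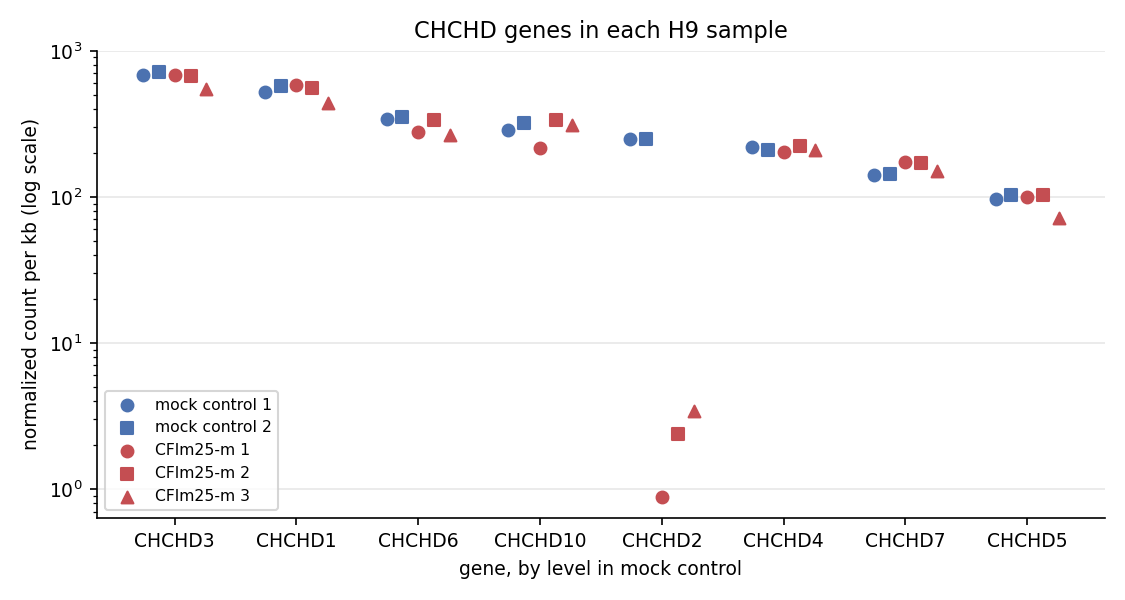
Normalized count per kb of gene length (log axis) of the 8 CHCHD genes in each of the 2 mock control (blue) and 3 CFIm25-m (red) samples, 1 point per sample. CHCHD2 drops from 247.3 in mock control to 2.22 in the clones, while the red and blue points of the other genes lie close together.

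None of the 7 relatives was called as changed, by limma-trend, by edgeR or by DESeq2, and 0 of 7 had an unadjusted limma-trend p below 0.05. Over all 19232 tested genes, 1.88% were called in either direction, 0.936% lower and 0.941% higher in the clones. The log2 fold changes of the relatives were between -0.25 and 0.22, with 6 of 7 below zero and a median of -0.10, beside a median of -0.01 over all tested genes. The groups did not overlap for CHCHD3, CHCHD6 and CHCHD7, 3 of 7, while 36.8% of all tested genes had groups apart. Summed over the 7 relatives, normalized counts were 6006 and 6310 in mock control and 6007, 6287 and 5206 in the clones. CFIm25-m replicate 3 alone lay below both mock controls in this sum.

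CHCHD3 and CHCHD6 are subunits of the MICOS complex, known as MIC19 and MIC25. CHCHD6 (chr3:126704220-126960406, plus strand) had the lowest fold change of the relatives, with 935.9 and 976.6 normalized counts in mock control and 766.7, 931.8 and 732.9 in the clones. All 3 clones were below both controls, replicate 2 by little, and the log2 fold change was -0.25 (SE 0.12, limma-trend adjusted p = 0.377, 95% interval -0.52 to 0.03). CHCHD3 (chr7:132784868-133082088, minus strand) had 2334 and 2455 normalized counts in mock control and 2326, 2290 and 1876 in the clones. The clones were again all lower, but replicate 1 lay only just under a control, and the log2 fold change was -0.15 (SE 0.11, limma-trend adjusted p = 0.552, 95% interval -0.40 to 0.10). Listed within CHCHD3 on the same strand is the processed pseudogene AC008038.1, with 4374 to 4426 normalized counts in mock control and 3187 to 4252 in the clones. Its log2 fold change was -0.27 (SE 0.12, limma-trend adjusted p = 0.332). How reads over both genes were assigned is not given in the sources used here, so the values of CHCHD3 are uncertain to that extent.

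CHCHD7, the homolog of the cytochrome c oxidase assembly factor COX23 (chromosome 8, plus strand), was the 1 relative with a fold change above zero. It had 827.6 and 837.7 normalized counts in mock control and 1022, 998.4 and 884.9 in the clones. All 3 clones were above both controls, and the log2 fold change was 0.22 (SE 0.10, limma-trend adjusted p = 0.367, 95% interval -0.02 to 0.45). The difference did not pass the threshold.

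CHCHD4, the import receptor and oxidase on which the family depends (chr3:14112077-14124870, minus strand), had the fold change nearest to zero among the relatives. It had 387.3 and 372.5 normalized counts in mock control and 359.8, 397.0 and 368.4 in the clones. The groups overlapped fully, with a log2 fold change of -0.02 (SE 0.12, limma-trend adjusted p = 0.958). Its 95% interval of -0.29 to 0.25 spans 0.820 to 1.19 times the mock level. With upper quartile scaling its sign turned, to 0.021.

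CHCHD1, a protein of the small subunit of the mitochondrial ribosome (chr10:73782047-73783652, plus strand), had 768.8 and 849.2 normalized counts in mock control and 862.9, 828.3 and 651.2 in the clones. Replicate 3 was low and replicate 1 the highest of all, and the log2 fold change was -0.06 (SE 0.13, limma-trend adjusted p = 0.867, 95% interval -0.36 to 0.24). CHCHD5, a less studied member (chr2:112584240-112589275, plus strand), had 363.1 and 385.1 normalized counts in mock control and 374.8, 386.2 and 269.3 in the clones. Only replicate 3 was below the controls, and the log2 fold change was -0.14 (SE 0.17, limma-trend adjusted p = 0.728, 95% interval -0.51 to 0.23). Without replicate 3, the sign turned for CHCHD1 to 0.065 and for CHCHD5 to 0.025.

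**Figure D2:**
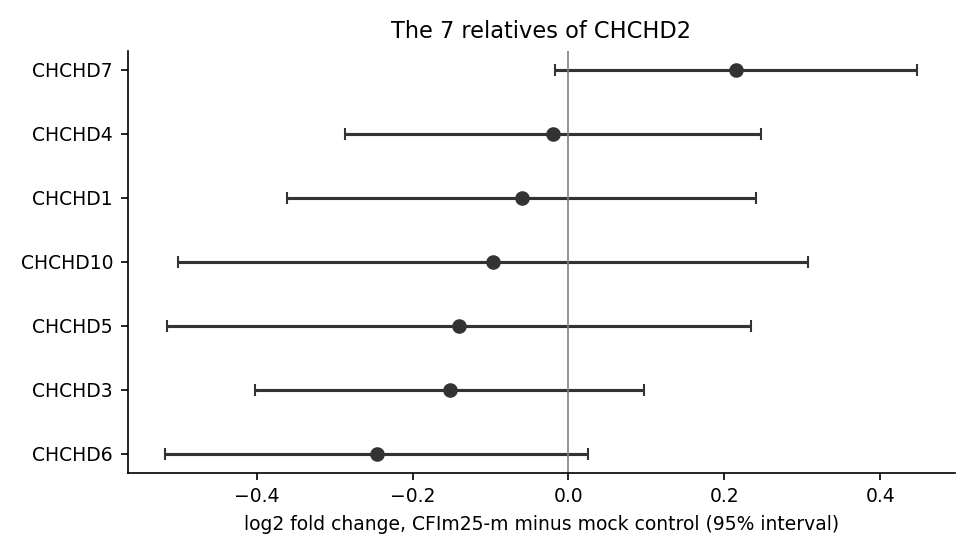
Log2 fold change of each of the 7 relatives, CFIm25-m minus mock control, with its 95% interval from limma-trend (n = 2 and 3). All 7 intervals include 0, and CHCHD7 alone lies above 0.

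CFIm25-m replicate 3 was the lowest sample for 4 of the 7 relatives, CHCHD1, CHCHD3, CHCHD5 and CHCHD6. Over all tested genes it was the lowest for 32.5%, and each of the other 4 samples for 15.8% to 17.9%. Among the lists of partner genes described next, the share was 83.3% for intermembrane space import, 80.0% for other twin CX9C proteins and 72.4% for the mitochondrial ribosome small subunit. It was 66.7% for the COX4I2 circuit with its 3 tested genes, 61.5% for inner membrane proteases and cristae shape, and 60.0% for MICOS and its partners. For the integrated stress response it was 31.2%, near that of all tested genes. The part of this library in the lower means was not tested. Without it 0 of 7 relatives were called by limma-trend, as with it, beside 5.56% of all tested genes in that fit.

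The partners and pathways of these genes were then examined in 7 lists of mitochondrial and stress genes, of which 98 were tested. No gene of any list was called by limma-trend, edgeR or DESeq2. An unadjusted p below 0.05 was found for 8 of the 98, or 8.16%, beside 15.1% of all tested genes. Of these 8 genes, 4 were among the 16 tested genes of the integrated stress response. The lists held 15 tested genes of other twin CX9C proteins, with a median log2 fold change of -0.03. Among these, COX6B2, a form of a cytochrome c oxidase subunit, had the highest fold change of 0.27 (SE 0.15), and NDUFB7, a subunit of complex I, the lowest of -0.22 (SE 0.11). Normalized counts of NDUFB7 were 1407 and 1378 in mock control and 1205, 1310 and 1086 in the clones, with the groups apart.

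The 12 tested genes of intermembrane space import had a median log2 fold change of -0.02, from TIMM8A at -0.26 (SE 0.12) to TIMM8B at 0.11 (SE 0.15), both small chaperones of that space. The 13 genes of inner membrane proteases and cristae shape had a median of -0.04. AFG3L2, a subunit of the m-AAA protease, was lowest there at -0.25 (SE 0.10), and OPA1, the fusion GTPase of the inner membrane, highest at 0.12 (SE 0.11). The 29 tested proteins of the mitochondrial ribosome small subunit had a median of -0.07, from MRPS18A at -0.33 (SE 0.13) to MRPS17 at 0.16 (SE 0.19). None of these 6 genes passed the threshold over all tested genes.

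In the nuclear circuit, COX4I2 itself was below the level needed for testing, with at most 4.81 normalized counts in any sample. RBPJ, the DNA-binding factor through which CHCHD2 acts, was at -0.07 (SE 0.09), the highest of its list. COX4I1, the widely expressed form of the same subunit, was at -0.14 (SE 0.10). Its normalized counts were 5622 and 5519 in mock control and 5428, 5113 and 4620 in the clones.

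The integrated stress response, which cells mount under several stresses including mitochondrial ones, had the 1 list median above zero, at 0.08 over 16 tested genes. CHAC1, a glutathione-degrading enzyme, was highest at 0.62 (SE 0.21), with 268.6 and 267.3 normalized counts in mock control and 329.7, 572.6 and 373.2 in the clones. All 3 clones were above both controls for CHAC1, with replicate 2 the highest, but it was not called. CHAC1 was 1 of 4 genes among the 16 with an unadjusted limma-trend p below 0.05, beside 15.1% of all tested genes. The others, named after their values were seen, were ASNS at 0.52 (SE 0.21), TRIB3 at 0.41 (SE 0.18) and PSPH at 0.29 (SE 0.12). They too were higher in every clone than in both controls and were not called. Of the 16 fold changes, 5 were below zero. DDIT3, which encodes the transcription factor CHOP, was lowest at -0.28 (SE 0.27). CFIm25-m replicate 2 was the highest of the 5 samples for every tested gene of this list except DDIT3 and VLDLR. ATF4 had 8604 normalized counts in that clone and 6110 to 6821 in the other samples. The part of this library in the list median was not tested. Without CFIm25-m replicate 3, 1 gene of this list was called, beside 5.56% of all tested genes in that fit. It was PSAT1, an enzyme of serine synthesis. Its log2 fold change there was 0.38 (SE 0.09, limma-trend adjusted p = 0.0419), beside 0.24 (SE 0.15, limma-trend adjusted p = 0.480) with all samples.

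In the list of MICOS and its outer membrane partners, 10 genes were tested with a median log2 fold change of -0.08. APOOL, the MICOS subunit MIC27, had the lowest value of all lists, -2.61 (SE 1.81, limma-trend adjusted p = 0.528). Its normalized counts were 396.5 and 373.5 in mock control and 339.8, 0.900 and 388.6 in the clones. Replicate 2 alone was near zero, at 1 read, while the other clones were close to the controls. That read was 0.234% of the mock level, with an exact 95% interval for counting error of 0.0059% to 1.31%. DNAJC11, an outer membrane partner, was highest in this list at 0.14 (SE 0.12).

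**Figure D3:**
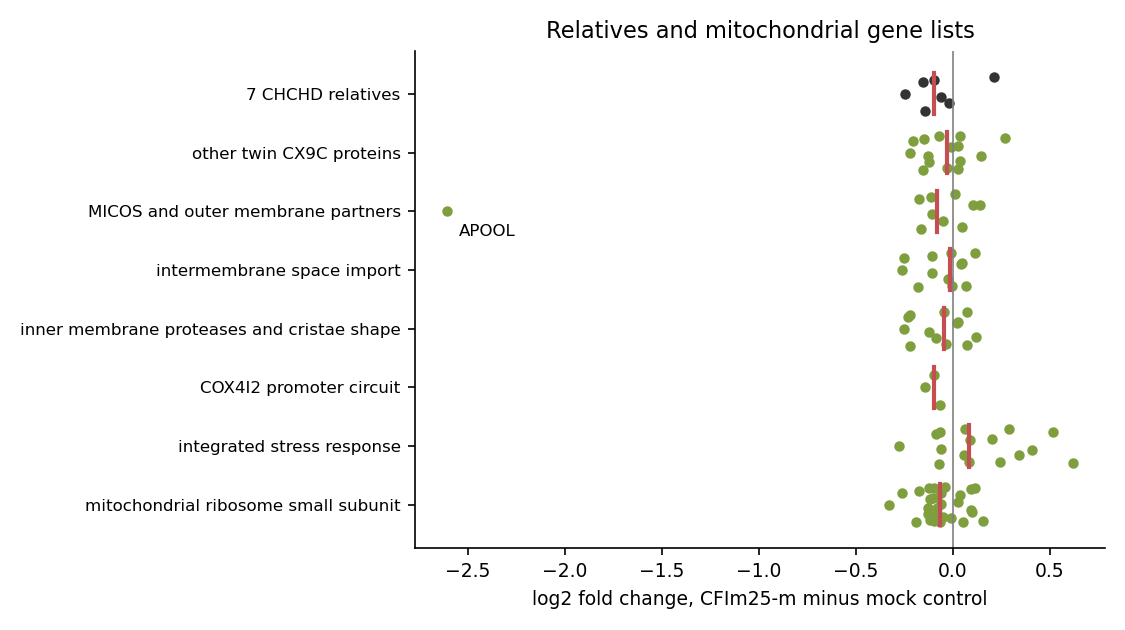
Log2 fold change, CFIm25-m minus mock control, of the 7 relatives (black) and of the tested genes of 7 lists (green), 1 point per gene, with the median of each row as a red line. Medians lie between -0.10 and 0.08, and APOOL stands apart at -2.61.

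The genes beside CHCHD2 on chromosome 7 showed no fall of its size. Within 1000000 bases of either end, 21 genes are listed and 10 were tested. None of them was called by limma-trend, edgeR or DESeq2, and 2 had an unadjusted p below 0.05. Over all tested genes, limma-trend called 1.88%, and 15.1% had an unadjusted p below 0.05. The log2 fold changes of the 10 neighbours lay between -0.16 and 0.70. The nearest listed gene is PHKG1, a subunit of phosphorylase kinase, 8573 bases away, with 8.07 and 5.79 normalized counts in mock control and 12.0, 9.90 and 8.66 in the clones, too low to be tested. On the other side the nearest is the processed pseudogene AC073136.1, 181654 bases away, at -0.03 (SE 0.37).

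Further genes of this stretch are named after their values were seen. SUMF2, 20899 bases from CHCHD2, was at -0.07 (SE 0.09) and CCT6A, a subunit of the chaperonin TRiC, at -0.16 (SE 0.11). PSPH, an enzyme of serine synthesis 49965 bases away and also in the integrated stress response list, had 599.3 and 578.1 normalized counts in mock control and 700.6, 810.3 and 660.8 in the clones. Its groups were apart, at a log2 fold change of 0.29 (SE 0.12, limma-trend adjusted p = 0.280). ZNF713 was highest at 0.70 (SE 0.26, limma-trend adjusted p = 0.238).

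Around the other members, within the same distance, 142 genes were tested and 1 was called by limma-trend, 1 by DESeq2 and 0 by edgeR. An unadjusted p below 0.05 was found for 16 of the 142. The shares over all tested genes were 1.88% called by limma-trend and 15.1% at an unadjusted p below 0.05. The gene called by limma-trend was XKR4, which lies within 1000000 but not within 500000 bases of CHCHD7. No listed gene overlaps the span of CHCHD1, CHCHD2, CHCHD4 or CHCHD7. CHCHD10 overlaps MMP11 and C22orf15 on the other strand, which were at -0.18 (SE 0.19) and 0.19 (SE 0.21) and were not called. MMP11 had 164.4 to 236.4 normalized counts per sample and C22orf15 had 65.6 to 90.0. Without a stated strand setting, reads from the stretches they share with CHCHD10 cannot be told apart. AC009365.2 in CHCHD3, AC012442.2 in CHCHD5 and RCC2P4 in CHCHD6 were below the level needed for testing.

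**Figure D4:**
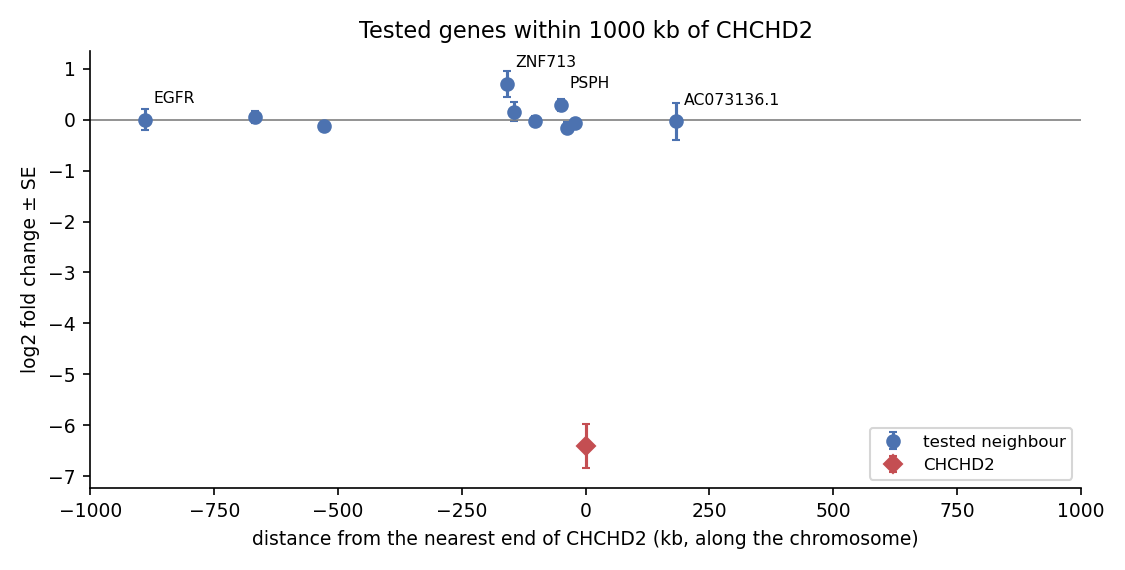
Log2 fold change ± SE, CFIm25-m minus mock control, of CHCHD2 (red) and of the 10 tested genes within 1000000 bases (blue), by distance from the nearest end of CHCHD2. The neighbours lie between -0.16 and 0.70 and CHCHD2 at -6.41.

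The genes whose pattern was most like that of CHCHD2 were found from the root mean square difference of log2(value + 1), centred on each gene's mean, over the 5 samples. Among 18562 genes compared, the 5 closest were LINC00458 (0.38), TUSC1 (0.47), AC097652.1 (0.78), MPV17L (0.98) and ZNF717 (1.11). The next was CCDC152 at 1.26, and the median gene was at 3.17. The 7 relatives lay between 3.05 and 3.28, close to that median. With 5 samples in 2 groups, likeness mostly measures a fall of similar size.

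LINC00458, a long non-coding RNA of stem cells on chromosome 13, had 1698 and 1664 normalized counts in mock control and 20.0, 18.0 and 40.4 in the clones. TUSC1 on chromosome 9 had 106.0 and 124.5 in mock control and was at 0 in all 3 clones. MPV17L on chromosome 16 had 119.9 and 122.6 normalized counts in mock control and 2.00, 0 and 0 in the clones. ZNF717, a zinc finger gene on chromosome 3, had 202.9 and 151.5 in mock control and 6.01, 5.40 and 15.4 in the clones. AC097652.1 on chromosome 4 had 26.5 and 44.4 normalized counts in mock control and was at 0 in all clones. None of the 5 lies on chromosome 7. A count of tested genes with at least 100 normalized counts in both controls and at most 4 reads in every clone gave 4 genes, namely CHCHD2, MPV17L, TUSC1 and ZFP42, and these limits were chosen after the values of CHCHD2 were seen.

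**Figure D5:**
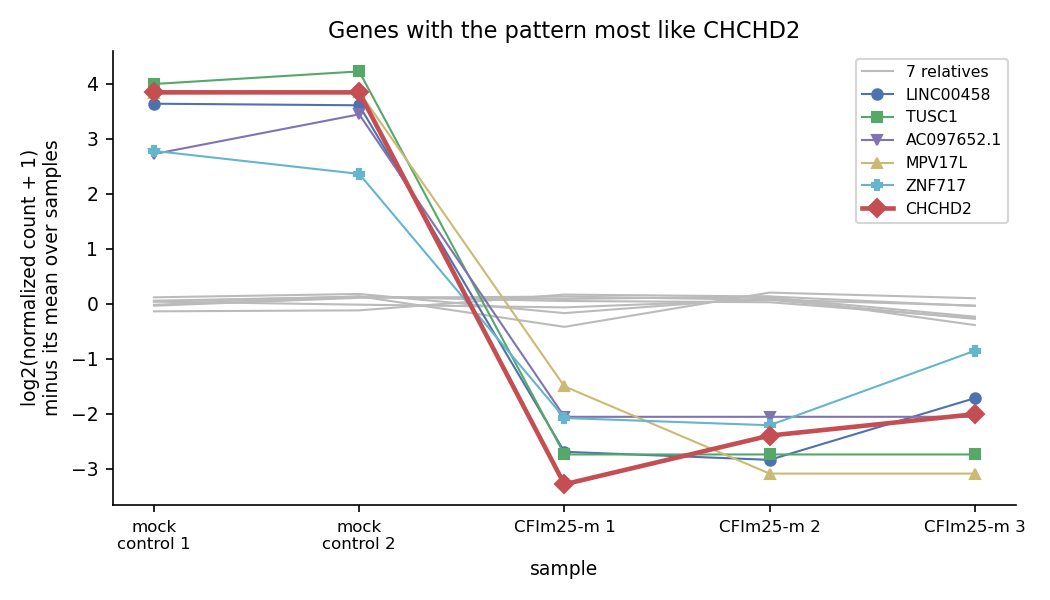
Log2(normalized count + 1) minus its mean over the 5 samples, for CHCHD2 (red), the 5 genes most like it (coloured) and the 7 relatives (grey). CHCHD2 and the 5 genes are high in both mock controls and low in all 3 clones, and the relatives stay near 0.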

How the data were processed

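Poly(A+) RNA-seq values of 2 mock control and 3 CFIm25-m samples of H9 cells were used, with groups and replicate numbers from the labels. The control columns carry only the name H9 and a number, and were matched to the 2 control samples. The authors deposited normalized counts, a signal in which the reads of each gene were scaled by 1 size factor per sample. The submitters' processing notes name HISAT2, featureCounts of Subread, DESeq2 and hg38. The annotation release and strand setting are not given in the sources used here. Deposited gene lengths were used for levels per kb. The authors also deposited group means, log2 fold changes and p-values of their own comparison, which were not used. Listed positions of all 8 members overlapped those of RefSeq in GRCh38.

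All values fell on whole multiples of 1 read's value, so whole reads were recovered for 100% of values within 0.01 reads. Normalized counts were tested with limma 3.58.1 (lmFit, eBayes with trend) in R 4.3.3 on log2(value + 1), for the 19232 genes with at least 10 normalized counts in at least 2 samples. Benjamini-Hochberg adjustment was made over these genes, and genes with an adjusted p below 0.05 were called. The count tests edgeR 4.0.16, which called 348 genes, and DESeq2 1.42.0, which called 628, were run on recovered reads as alternatives. Ratios of reads have exact conditional binomial 95% intervals.

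The members, lists and tests were chosen with earlier results of these data known. The genes named were the 8 members, NUDT21, pseudogenes of members and genes that overlap them. Added to these were called genes of each mitochondrial list, or otherwise the genes with its highest and lowest fold change. The nearest gene on each side of CHCHD2, called genes within 1000000 bases, and the 5 genes most like CHCHD2 among those with a mean of at least 10 completed the set. Of 102 genes in the 7 lists, 101 are listed and 98 were tested. The alternatives tried were TMM and upper quartile scaling, no filter or a minimum of 50, pseudocounts of 0.1 and 5, no variance trend, both count tests, a replicate block, each sample left out, a distance of 500000 bases and, for likeness, a pseudocount of 5. Promoters came from RefSeq. Protein sequences were not used here.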

Additional observations from a re-analysis of the deposited data

How the results depend on the processing

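CHCHD2 kept its direction under all alternatives run, and its log2 fold change was -5.26 with a pseudocount of 5 and -6.69 to -6.05 with 1 sample left out. The number of genes called lower was 25 without a variance trend and 279 with DESeq2, against 180, and ran from 34 to 533 with 1 sample left out. The number called higher was 21 without a trend and 349 with DESeq2, against 181, and ran from 25 to 536. The causes of these shifts were not tested.

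The replicate numbers pair no samples by design, and same-numbered samples had deviations with correlations of only 0.01 and 0.02 over genes. With the replicate block, which in effect drops CFIm25-m replicate 3, 1064 of all 19232 tested genes were called lower and 1043 higher. Of the 7 relatives, 1 was called under the block, CHCHD7 at 0.28 (limma-trend adjusted p = 0.0288). In the mitochondrial lists 9 of the 98 tested genes were called, beside those counts over all tested genes. They were APOOL, lower, and ATF3, CHAC1, MTHFD2, PSAT1, PSPH, SHMT2, TIMM8B and TRIB3, higher. Without CFIm25-m replicate 3, 1 of the 98 was called, PSAT1, beside 5.56% of all tested genes in that fit. With CFIm25-m replicate 1 or 2 left out, 0 were called.

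Among 105 fold changes of relatives under alternatives, 10 turned sign and 94 kept both sign and side of the threshold. Under the block, CHCHD1 was at 0.065 and CHCHD5 at 0.025. CHCHD4 was at 0.021 with upper quartile scaling and 0.0017 with edgeR. With 1 sample left out, CHCHD1 ranged from -0.14 to 0.065, CHCHD4 from -0.061 to 0.0099, CHCHD5 from -0.23 to 0.025 and CHCHD10 from -0.22 to 0.094. Adjusted p-values of the relatives ran from 0.0288 to 0.999.

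The called genes around CHCHD2 stayed at 0 with 500000 bases. Of the 5 genes most like CHCHD2, 4 stayed among the 5 closest with a pseudocount of 5. Few reads limit how far below 1.80% of mock control CHCHD2 can be placed.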

Other observations

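The near absence of APOOL in 1 clone led to a count, chosen after its values were seen, of tested genes with at most 3 reads in 1 sample and at least 100 normalized counts in each of the other 4. APOOL was the 1 such gene in CFIm25-m replicate 2, and there were 0 in each of the other 4 samples. The 5 tested genes within 1000000 bases of APOOL were present in that clone. Their level in replicate 2 was 0.753 to 1.68 times the mean of the other 4 samples. SATL1, whose listed span overlaps that of APOOL, had 20.7 normalized counts in replicate 2 and 5.79 to 15.0 elsewhere. ZNF711, which lies 150716 bases away, had 825.6 in replicate 2 and 779.8 to 1171 elsewhere.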
